A study of Mus musculus with 8 samples.

Results

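The MCM helicase and its loading factors were followed in whole mammary tumours in which miR-21 had been sequestered. The 10 genes were taken by name from the 27179 genes of the count table. They are the 6 subunits of the replicative helicase (Mcm2, Mcm3, Mcm4, Mcm5, Mcm6 and Mcm7), the replication initiation factor Mcm10, the loading factors Cdc6 and Cdt1, and geminin (Gmnn), the inhibitor of Cdt1. All 10 were in the table and all 10 passed the filter on low counts, which 14382 genes passed.

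Licensing is the step that makes a stretch of DNA competent to replicate. In late mitosis and G1 the origin recognition complex marks origins, and CDC6 and CDT1 then load MCM2 to MCM7 onto DNA as closed rings, each ring holding 1 copy of every subunit. In S phase the rings are converted to active helicases by CDC45 and the GINS complex, MCM10 takes part in that activation, and geminin together with ubiquitin ligases keeps CDT1 from loading further rings until the cell has divided. Transcripts of these genes are abundant in dividing cells and scarce in resting cells, so they are widely read as signs of proliferation in tumours.

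The tumours were grown from 4T1.13, a highly metastatic mouse mammary carcinoma line derived from 4T1, of which, according to the labels, 100000 cells were placed in a mammary fat pad of each BALB/c mouse and which was recovered as tumours 14 days later, when regression of the miR-21-KD tumours had begun. The 4 miR-21-KD tumours came from cells carrying a miArrest lentiviral vector whose H1 promoter drives an RNA that sequesters mature miR-21. The 4 vector control (VC) tumours came from cells with the same vector carrying a scrambled RNA, so that mCherry and hygromycin resistance were common to both groups. Each line was a pool of 6 clones, which limits how far it stands for the parental line. All tumours of a group came from the same pool, so sequestration and a difference between the pools cannot be told apart. The vector was carried by the injected cells and not by the host cells that a whole tumour also holds. The mice were 7 to 8 weeks old at injection. The study's text places the recovery of these tumours on an earlier day than the labels do, and its legends give a larger number of cells for 4T1.13 tumours in these mice. Neither was settled here. The labels name no separate cultures or batches. P-values therefore measure the spread between these tumours. Libraries held 12134849 to 13592695 counted reads in the VC group and 12550898 to 12783800 in the miR-21-KD group.

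Sequestration does not remove the miR-21 gene, so its transcript checks no label, and Mir21a had 0 reads in all 8 libraries, where a count of 0 allows up to 3 reads. The sequestered strand is shown because it defines the 2 groups, with its seed (bases 2 to 8) in capitals, from RefSeq on GRCm38.p6 at chr11:86584120-86584141 on the minus strand:
mmu-miR-21a-5p: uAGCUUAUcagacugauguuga

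Promoter letters were read next, because genes of S phase are known to carry sites for E2F factors, which are held in check by retinoblastoma family proteins, and genes of G2 and M phase are known to carry CHR and CCAAT elements. RefSeq promoter windows of GRCm38.p6 ran from 250 bases before to 50 bases after each transcription start, and 8 of the 10 genes had at least 1, with 9 windows in all because Mcm7 had a pair of starts. Mcm4 and Gmnn had no entry. Positions refer to the starts of that table, which lay inside the outer edge of the annotated gene for Mcm5 (41 bases), Mcm7 (228 and 845 bases) and Cdc6 (442 bases). As E2F letters the word TTCCCGC was searched on both strands. The same was done for the variant TTGGCGC of this element. The remaining variant searched was TTCGCGC, and overlapping matches were joined into 1 stretch. The stretches from 180 to 21 bases before the start are printed for the subunit with the most E2F stretches (Mcm6), for a subunit with a pair of upstream stretches (Mcm5) and for a subunit without any (Mcm2), with E2F letters in capitals:
Mcm6 (chr1:128359726-128359885, minus strand): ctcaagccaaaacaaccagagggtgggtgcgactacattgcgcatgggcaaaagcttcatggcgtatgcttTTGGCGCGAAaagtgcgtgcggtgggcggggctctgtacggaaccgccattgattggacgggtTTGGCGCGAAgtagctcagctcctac
Mcm5 (chr8:75109329-75109488, plus strand): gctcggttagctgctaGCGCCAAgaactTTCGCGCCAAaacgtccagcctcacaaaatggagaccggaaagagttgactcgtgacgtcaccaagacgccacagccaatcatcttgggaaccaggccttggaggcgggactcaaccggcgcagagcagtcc
Mcm2 (chr6:88898801-88898960, minus strand): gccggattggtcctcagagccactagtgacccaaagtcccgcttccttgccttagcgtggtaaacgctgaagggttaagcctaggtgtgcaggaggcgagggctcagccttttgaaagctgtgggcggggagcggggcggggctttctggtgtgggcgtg

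E2F letters stood in 7 of the 9 windows, belonging to 6 of the 8 genes, against 8.07% of 32851 promoter windows of the same length. At least 2 separate stretches stood in 5 of the 9 windows, against 0.785% of all windows. Mcm6 had 3 stretches, at 109 and 46 bases before and 25 bases after the start, and the first and second of them read the same 10 letters. Mcm3, Mcm5, Cdt1 and the first start of Mcm7 had 2 each, Cdc6 and the second start of Mcm7 had 1, and Mcm2 and Mcm10 had none of these letters in the window. The CCAAT letters stood in 7 of the 9 windows against 37.4% of all windows, and 1 such stretch shared letters with an E2F stretch. The CHR letters TTTGAA stood in 1 of the 9 windows, that of Mcm2, against 17.9% of all windows. These are matches of letters and not measured binding.

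**Figure D1:**
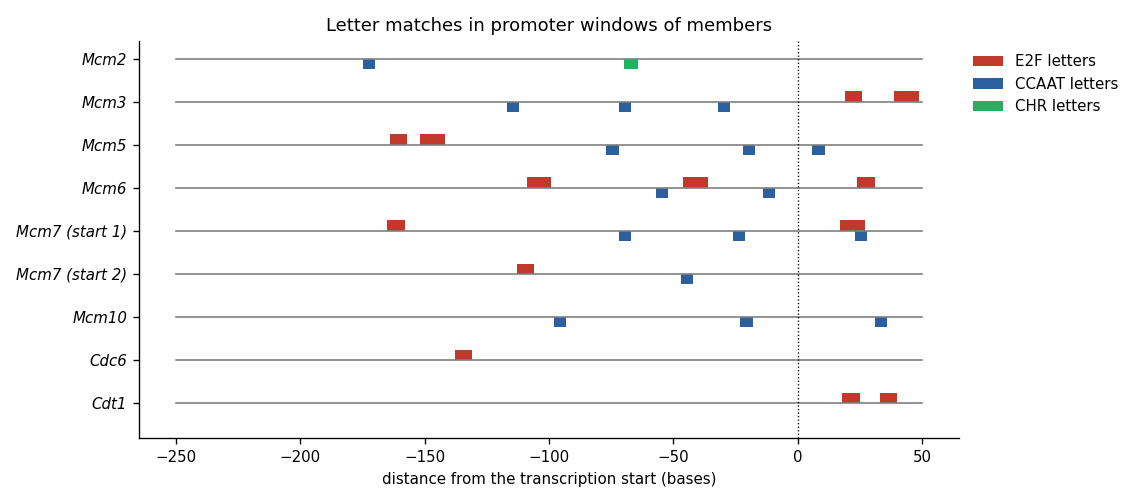
Positions of E2F letters (red), CCAAT letters (blue) and CHR letters (green) in the 9 promoter windows of 8 licensing genes, by distance in bases from the transcription start (dotted line), with start 1 and start 2 for Mcm7. Mcm6 carries 3 red stretches and Mcm2 and Mcm10 carry none, while the 1 green mark is in Mcm2.

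One tumour stood apart within its group and is named before the results. Expression was measured as CPM, the count of a gene scaled to library size with TMM factors. Tumour 2 of the miR-21-KD group (KD2) was the highest miR-21-KD tumour for 10 of the 10 genes and lay above at least 1 VC tumour for 5 of them. The 6 helicase subunits together, as the mean of their log2 CPM relative to the VC mean, were at -0.25, 0.15, 0.18 and -0.08 in VC 1 to 4 and at -1.20, -0.27, -1.13 and -1.09 in KD1 to KD4. KD1, KD3 and KD4 thus lay far below every control and KD2 lay just below the lowest one. This order was not particular to licensing genes, since KD2 was also the highest miR-21-KD tumour in 2069 (73.9%) of the 2800 genes called lower. The calls and fold changes of the licensing genes are therefore given with and without KD2, and the levels, shares and ratio differences per group include it.

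Licensing transcripts were lower in miR-21-KD than in VC tumours. All 10 genes fell past the threshold (edgeR quasi-likelihood test, Benjamini-Hochberg adjusted p under 0.05 over all genes tested), where 19.5% of all genes tested were called lower and 19.6% higher. The log2 fold changes ran from -0.52 for Mcm4 to -1.38 for Cdc6 with a median of -0.90, against a median of -0.01 over all genes tested. The groups did not overlap for 5 of the 10, Mcm5, Mcm6, Mcm7, Mcm10 and Cdc6, an order of complete separation that 18.9% of all genes tested showed. KD1, KD3 and KD4 were below every VC tumour for 10 of the 10 genes, and in 27.3% of all genes tested. Without KD2 the count called lower was again 10, where 24.3% of all genes tested were called lower, with log2 fold changes from -0.73 to -1.80. The count dropped to 5 without VC2 (10.8% of all genes called lower) or KD1 (13.7%) and to 4 without VC3 (10.2%), KD3 (12.2%) or KD4 (11.1%), while every log2 fold change stayed negative.

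In these whole tumours, fewer cells of a kind and less RNA per cell cannot be told apart. Several lists of host cell markers moved in the opposite direction to the licensing genes. Markers of macrophages and monocytes rose for 7 of 8 genes, where 19.6% of all genes tested were called higher. Their summed level was 2552 to 3801 CPM in VC and 5119 to 8048 CPM in miR-21-KD tumours. Fibroblast markers rose for 5 of 7, from a summed 3062 to 8041 CPM in VC to 10460.0 to 23375 CPM in miR-21-KD tumours. The collagen genes Col3a1, Col1a1 and Col1a2 weigh most in this sum (VC means 2748, 1257 and 979 CPM). Pdgfra (log2 fold change -0.36) and Pdgfrb (0.67) did not pass. General leukocyte markers rose for 4 of 6 and adipocyte markers for 5 of 5, the latter from a summed 85.2 to 320 CPM to 428 to 1124 CPM. KD2 had the lowest sum of the 4 miR-21-KD tumours for macrophage, fibroblast, leukocyte and adipocyte markers, and for neutrophil and red blood cell markers. It was not the lowest for T cell, NK cell, dendritic cell, B cell, endothelial or skeletal muscle markers. The T cell sum, for example, was 224 CPM in KD2 and 142 CPM in KD3. The part of these cells in the licensing result was not tested.

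Other marker lists gave a mixed picture. T cell markers rose for 5 of 8, dendritic cell markers for 3 of 6 and NK cell markers for 2 of 5, where 19.6% of all genes tested were called higher. Endothelial markers rose for 1 of 5, which is near that share. No marker of B cells (0 of 4 tested), neutrophils (0 of 5), red blood cells (0 of 3) or skeletal muscle (0 of 1) passed the test in either direction. Summed B cell markers were 5.09, 1.76, 2.84 and 145 CPM in VC 1 to 4 and 13.2, 9.35, 8.68 and 63.7 CPM in KD1 to KD4, so both tumours numbered 4 stood far above the rest. Some of these counts moved with the fit. Without KD2, dendritic cell markers were called higher for 6 of 6 genes, red blood cell markers for 2 of 3, and 2 epithelial markers were called lower. In that fit 3290 of 14620 genes tested were called higher and 24.3% lower. With the replicate number as a block, 3309 of 14382 genes tested were called higher and 22.1% lower. T cell markers were then called higher for 8 of 8 genes, fibroblast markers for 6 of 7 and general leukocyte markers for 5 of 6. Dendritic cell markers were called higher for 4 of 6 and neutrophil markers for 2 of 5, and 1 endothelial and 2 epithelial markers were called lower. The median log2 fold change of the B cell markers was -0.64 without the block and 0.71 with it. Of the 9 markers of mammary and tumour epithelium, 7 rose and 1 fell, and their sum was 1311 to 2274 CPM in VC and 1100 to 2082 CPM in miR-21-KD tumours. The fall was Krt18, a simple epithelial keratin (log2 fold change -1.15). Krt8, also a simple keratin, was lower without passing (-0.88, adjusted p = 0.0870 by edgeR). Krt18 and Krt8 had the highest mean levels of the list, 1022 and 808 CPM in VC, and so weigh most in the sum. In miR-21-KD tumours their means were 460 and 439 CPM. The simple keratins Krt19 (3.60) and Krt7 (1.26) rose, as did Krt14, a basal keratin (3.08). No listed marker was at 0 in all libraries, and epithelial markers of the labelled tissue were detected in both groups.

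**Figure D2:**
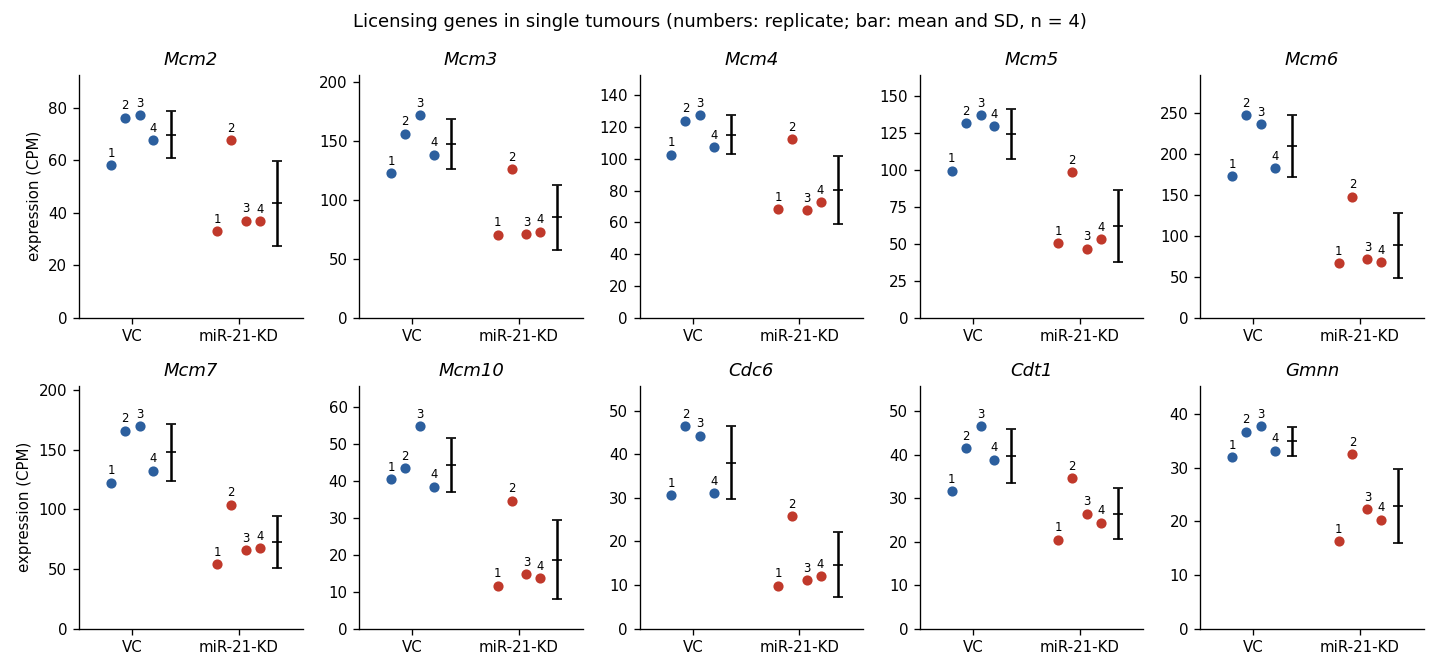
Expression in CPM of the 10 licensing genes in each of 4 VC (blue) and 4 miR-21-KD (red) tumours, numbered by replicate, with a bar for the mean and SD (n = 4) and every axis starting at 0. KD2 is the highest red point for all 10 genes, and the other 3 red points lie below every blue point.

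Among the helicase subunits, Mcm6 had the largest fold change (chr1:128331575-128359705). MCM6 is one of the subunits of the catalytic core together with MCM4 and MCM7. Its expression was 173, 247, 236 and 182 CPM in VC 1 to 4 and 66.8, 148, 71.3 and 67.6 CPM in KD1 to KD4. Every miR-21-KD tumour was below every VC tumour, and KD2 lay between the other miR-21-KD tumours and the controls. Mcm6 fell by 1.25 on the log2 scale (SE 0.28, adjusted p = 0.0121 by edgeR), to 42.1% of the VC level. Without KD2 the log2 fold change was -1.62.

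Mcm7 (chr5:138164583-138172111), a catalytic subunit often used as a proliferation marker, was expressed at 123, 166, 170 and 132 CPM in VC and at 53.8, 104, 66.0 and 67.2 CPM in miR-21-KD tumours. KD2 was below the lowest control and the groups did not overlap. The log2 fold change was -1.02 (SE 0.21, adjusted p = 0.00936 by edgeR), the smallest adjusted p of the 10 genes, and -1.25 without KD2. Exons of Mcm7 share 385 of their 2962 bases with genes on the opposite strand, 321 with Ap4m1 and 64 with Cops6. Both neighbours also fell, Ap4m1 by 0.39 (adjusted p = 0.0363) and Cops6 by 0.49 on the log2 scale (adjusted p = 0.00697). The strand setting of the counting is not given in the sources used here, so reads of the shared bases cannot be assigned.

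The introns of Mcm7 hold the microRNA genes Mir106b, Mir93 and Mir25, the cluster known as miR-106b-25. None of the 3 passed the filter on low counts. Mir25 had 8, 5, 10 and 8 reads in VC and 4, 7, 7 and 8 reads in miR-21-KD tumours, and Mir106b had at most 1 read in any tumour. Mir93 had 0 reads in each VC tumour and 3, 1, 3 and 2 reads in KD1 to KD4, so its groups did not overlap, at or under the 3 reads that a count of 0 allows. No test was made on these counts.

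Mcm5 (chr8:75109468-75128439), which with MCM2 forms the gate through which DNA enters the ring, stood at 99.6, 132, 137 and 130.0 CPM in VC and at 50.7, 98.6, 46.8 and 53.3 CPM in miR-21-KD tumours. KD2 was just under VC1, the lowest control, and the other 3 miR-21-KD tumours were clearly lower. Mcm5 fell by 1.00 on the log2 scale (SE 0.24, adjusted p = 0.0149 by edgeR). Without KD2 it was -1.32.

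Mcm3 (chr1:20802966-20820312), the subunit that contacts the origin recognition complex and CDC6 during loading, had 123, 156, 172 and 138 CPM in VC and 70.6, 126, 70.6 and 73.1 CPM in miR-21-KD tumours. Here KD2 lay above VC1, so the groups overlapped by this pair. The log2 fold change was -0.79 (SE 0.21, adjusted p = 0.0193 by edgeR), and -1.05 without KD2.

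Mcm2 (chr6:88883474-88898780), whose N-terminal tail binds histones, showed 58.1, 76.2, 77.2 and 67.6 CPM in VC and 32.9, 67.6, 37.0 and 36.7 CPM in miR-21-KD tumours. KD2 was at the level of VC4 and above VC1. Its log2 fold change was -0.68 (SE 0.23), and the adjusted p of 0.0432 by edgeR was the largest of the 10 genes. It became 0.0528 when no filter on low counts was used. Without KD2 the log2 fold change was -0.98.

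Mcm4 (chr16:15623897-15637400), a target of the kinase DDK when origins fire, had the smallest fold change. It was at 103, 124, 127 and 107 CPM in VC and at 68.4, 112, 67.8 and 72.6 CPM in miR-21-KD tumours. KD2 lay above both VC1 and VC4. The log2 fold change was -0.52 (SE 0.17, adjusted p = 0.0421 by edgeR), and -0.73 without KD2.

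Mcm10 (chr2:4990724-5012791) is no part of the ring and acts when the loaded helicase is switched on. Its expression was 40.3, 43.3, 54.8 and 38.4 CPM in VC and 11.6, 34.6, 14.7 and 13.7 CPM in miR-21-KD tumours. The groups did not overlap, although KD2 was close to the lowest control. Mcm10 fell by 1.25 on the log2 scale (SE 0.33, adjusted p = 0.0210 by edgeR). Without KD2 the log2 fold change was -1.74.

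Of the 2 loading factors, Cdc6 differed more. CDC6 (chr11:98907709-98923942) is the ATPase that recruits the helicase with CDT1. Its transcript was at 30.7, 46.5, 44.3 and 31.1 CPM in VC and at 9.86, 25.8, 11.0 and 12.1 CPM in miR-21-KD tumours. No miR-21-KD tumour reached a control. Cdc6 had the largest change of the 10 genes, a fall by 1.38 on the log2 scale (SE 0.32, adjusted p = 0.0135 by edgeR) to 38.5% of the VC level. Without KD2 the log2 fold change was -1.80.

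Cdt1 (chr8:122568015-122573130), which brings the helicase to the origin, was at 31.6, 41.6, 46.6 and 38.8 CPM in VC and at 20.5, 34.6, 26.5 and 24.3 CPM in miR-21-KD tumours. KD2 exceeded VC1 and was below the other 3 controls. Its log2 fold change was -0.58 (SE 0.18, adjusted p = 0.0317 by edgeR), and -0.74 without KD2. Gmnn (chr13:24751845-24761937), which encodes the inhibitor geminin, was at 31.9, 36.7, 37.8 and 33.2 CPM in VC and at 16.3, 32.5, 22.3 and 20.3 CPM in miR-21-KD tumours. KD2 again exceeded VC1 only. The log2 fold change of Gmnn was -0.61 (SE 0.20, adjusted p = 0.0376 by edgeR), and -0.83 without KD2.

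The tumours kept a similar order from gene to gene. KD1 was the lowest of the 8 tumours for 8 of the 10 genes and KD3 for the other 2, Mcm4 and Mcm5. VC3 was the highest for 8, with VC2 highest for Mcm6 and Cdc6. VC1 was the lowest control for 9 of the 10. The genes share libraries, so this order is a description. Among all 2800 genes called lower, KD1 was the lowest tumour in 1661 (59.3%).

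Levels between genes can be compared only per length, and CPM per kilobase of exon was used for this. In VC tumours the order of the mean levels was Mcm7 (49.9 CPM per kb), Mcm3 (48.6), Mcm6 (47.9), Mcm5 (36.1), Mcm4 (32.1), Gmnn (29.3), Mcm2 (20.7), Cdt1 (18.1), Mcm10 (8.92) and Cdc6 (7.97). The ranges over 4 tumours overlapped between neighbours except at Gmnn against Mcm2 and at Cdt1 against Mcm10. In miR-21-KD tumours the order was Mcm3 (28.1 CPM per kb), Mcm7 (24.5), Mcm4 (22.4), Mcm6 (20.2), Gmnn (19.2), Mcm5 (18.0), Mcm2 (12.9), Cdt1 (12.1), Mcm10 (3.76) and Cdc6 (3.07). Here the ranges of neighbours overlapped except at Cdt1 against Mcm10. In both groups the transcripts of Mcm10 and Cdc6 were the least abundant of the 10 per length. By these means Mcm6 stood above Mcm4 in the controls and below it in the miR-21-KD group, although in KD2 it was above Mcm4 (33.7 against 31.3 CPM per kb).

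**Figure D3:**
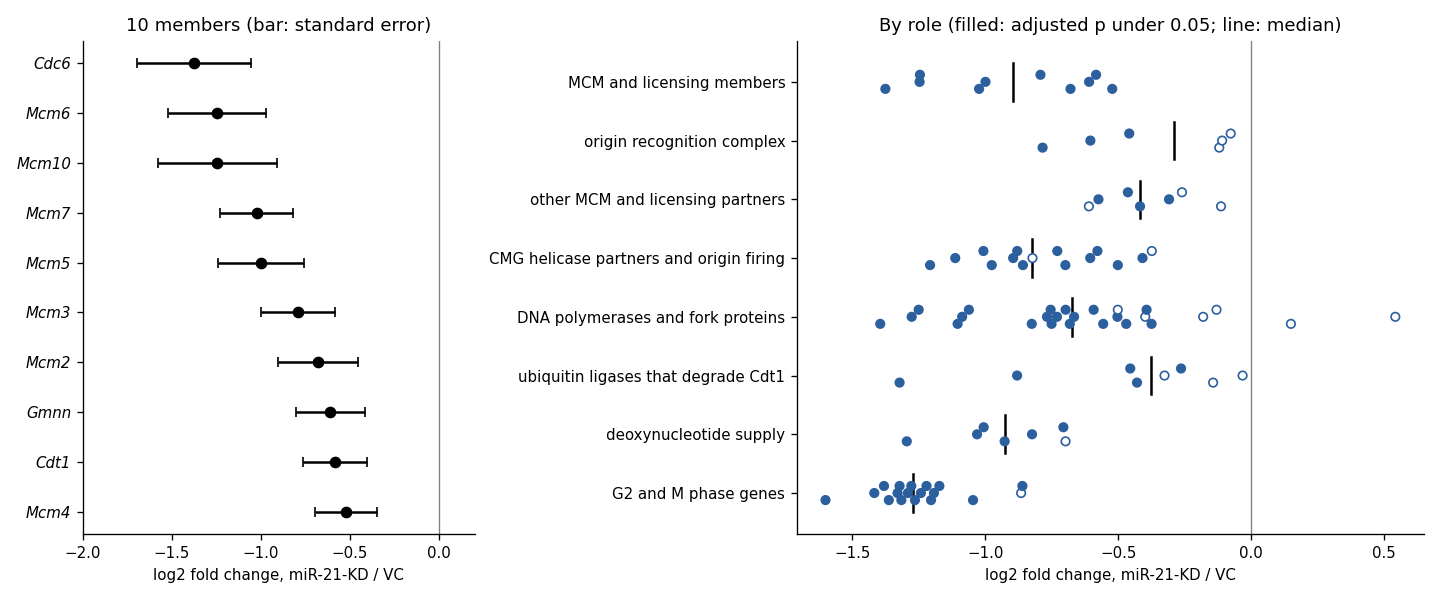
Log2 fold change of miR-21-KD against VC tumours for the 10 licensing genes with their standard errors (left) and for all tested genes of the licensing and replication lists (right), where filled points had an adjusted p under 0.05 and a line marks the median of each list. All 10 licensing genes lie left of 0, between -1.38 and -0.52, and no filled point lies right of 0.

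The subunits of the ring are used in equal numbers, so their proportions within a tumour were compared. Each was expressed as a log2 ratio to the mean of the 6, which does not depend on how libraries are scaled, and 9 ratios were tested together with an exact two-sided permutation test, for which 0.0286 is the smallest p that 4 against 4 tumours allow. The 6 are set against their own mean, so their differences sum to 0 and the tests are tied to one another. The log2 ratio of Mcm6 was lower in every miR-21-KD tumour than in any control, with values of 0.69, 0.80, 0.70 and 0.59 in VC and 0.27, 0.47, 0.29 and 0.17 in KD1 to KD4. The groups did not overlap (difference -0.40, exact permutation p = 0.0286). Mcm4 differed in the opposite direction by a similar amount, with log2 ratios of -0.07, -0.19, -0.19 and -0.18 in VC and 0.30, 0.08, 0.22 and 0.27 in miR-21-KD tumours. Here too the groups did not overlap (difference 0.37, exact permutation p = 0.0286), and neither did they for Mcm2 (difference 0.19, exact permutation p = 0.0286). After Benjamini-Hochberg adjustment over the 9 ratios these p-values were 0.0514, so no ratio passed 0.05 with all 8 tumours.

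The groups overlapped for the remaining subunits. The difference of the log2 ratio was 0.09 for Mcm3 (exact permutation p = 0.0571), -0.13 for Mcm5 (exact permutation p = 0.0571) and -0.13 for Mcm7 (exact permutation p = 0.114). As a share of the CPM per kb of the 6 subunits, Mcm6 held 20.3% ± 1.15 (SD, n = 4) in VC and 15.7% ± 1.5 in the miR-21-KD group. Mcm4 held 13.7% ± 0.590 in VC and 18.0% ± 1.13 in the miR-21-KD group, and Mcm2 held 8.81% ± 0.230 and 10.2% ± 0.372.

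Geminin was used as the reference for the other licensing factors, since it binds CDT1. The log2 ratio of Cdt1 to Gmnn was -0.01, 0.18, 0.30 and 0.23 in VC and 0.32, 0.09, 0.24 and 0.26 in miR-21-KD tumours. The groups overlapped, with VC1 below every miR-21-KD tumour (difference 0.06, exact permutation p = 0.514). The ratio of Cdc6 to Gmnn was -0.06, 0.34, 0.23 and -0.10 in VC and -0.72, -0.33, -1.01 and -0.74 in miR-21-KD tumours, without overlap (difference -0.80, exact permutation p = 0.0286). For Mcm10 to Gmnn the values were 0.34, 0.24, 0.54 and 0.21 in VC and -0.49, 0.09, -0.60 and -0.56 in miR-21-KD tumours, again without overlap (difference -0.72, exact permutation p = 0.0286). Both had an adjusted p of 0.0514 in this exact permutation test. Without KD2, 6 of the 9 ratios passed with an adjusted p of 0.0429, those of Mcm2, Mcm4, Mcm5 and Mcm6 to the ring and of Cdc6 and Mcm10 to Gmnn, in an exact permutation test of 3 against 4 tumours. Leaving out any of the other 7 tumours left 0 ratios past the threshold, with a smallest adjusted p between 0.0514 and 0.103 in that exact permutation test.

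**Figure D4:**
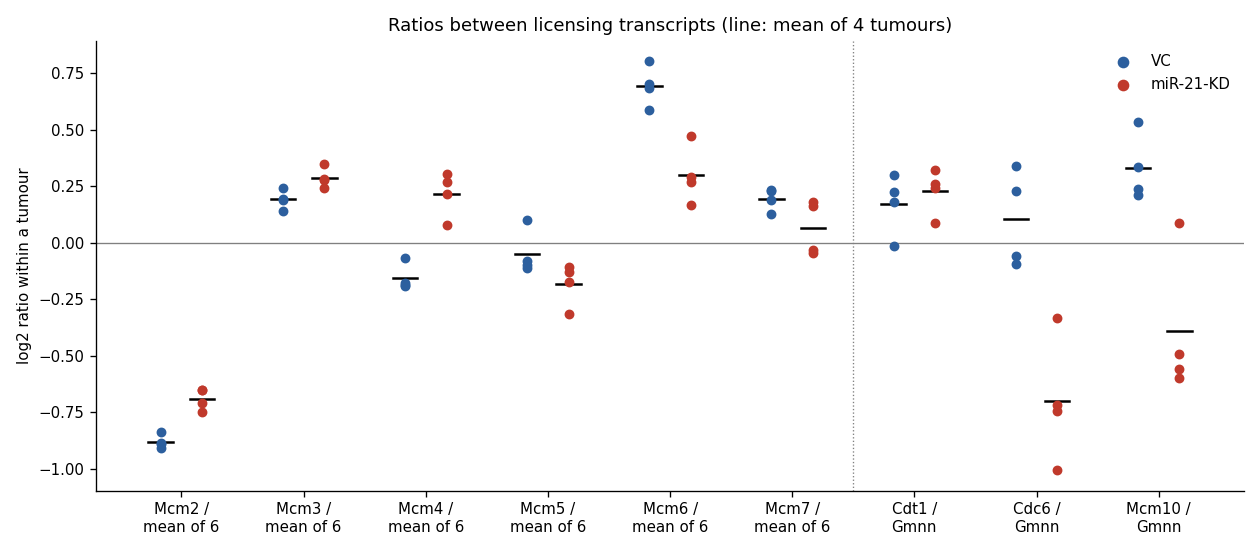
Log2 ratios within each of 4 VC (blue) and 4 miR-21-KD (red) tumours, of each helicase subunit to the mean of the 6 (left of the dotted line) and of Cdt1, Cdc6 and Mcm10 to Gmnn (right), with a line for each group mean. The colours do not overlap for Mcm2, Mcm4 and Mcm6 or for Cdc6 and Mcm10 against Gmnn, and they overlap for Cdt1 against Gmnn.

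Genes that act before and after the licensed helicase were taken from lists written by role. Together they held 90 genes, of which 87 were tested. Of these, 68 fell, 0 rose and 19 did not pass the test, with a median log2 fold change of -0.75, where 19.5% of all genes tested were called lower. Without KD2, 75 fell and 0 rose, where 24.3% of all genes tested were called lower. With the replicate number as a block, 72 fell and 1 rose, where 22.1% of all genes tested were called lower and 3309 of 14382 higher. The rise was Pold4, the smallest subunit of DNA polymerase delta (log2 fold change 0.53, adjusted p = 0.0200 in that edgeR fit).

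The origin recognition complex marks the sites where helicases are loaded. Of its 6 subunits, 3 fell, 0 rose and 3 did not pass, with a median log2 fold change of -0.29. Orc6 (log2 fold change -0.60, SE 0.13, adjusted p = 0.0121), Orc1 (-0.78, adjusted p = 0.0427) and Orc4 (-0.46, adjusted p = 0.0334) fell in the edgeR test. Orc1 is the subunit whose protein is known to change in amount over the cell cycle, and it was at 11.1, 11.7, 12.8 and 11.5 CPM in VC and 5.58, 11.2, 5.84 and 4.77 CPM in miR-21-KD tumours, with KD2 inside the range of the controls. Orc2 (-0.08), Orc3 (-0.11) and Orc5 (-0.12) had adjusted p-values of 0.663, 0.308 and 0.292 by edgeR. Orc2 was at 42.8 to 45.0 CPM in VC and at 34.4 to 53.0 CPM in miR-21-KD tumours.

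Of 7 other MCM proteins and licensing partners, 4 fell and 3 did not pass, with a median log2 fold change of -0.42. Lrwd1, a partner of the origin recognition complex, fell by 0.57, Kat7, a histone acetyltransferase that acts at origins, by 0.46 and Ciz1, a nuclear protein that promotes initiation, by 0.42 on the log2 scale. Mcm8 and Mcm9, relatives of the ring subunits that act in recombination, had log2 fold changes of -0.61 and -0.26 and did not pass.

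Of 15 partners that turn the ring into an active helicase or fire origins, 13 fell, with a median log2 fold change of -0.82. Ticrr, which is needed to bring CDC45 to the ring, fell by 1.21, Tipin, a fork protection factor, by 0.89 and Gins2, a GINS subunit, by 0.86. Of 26 polymerase and fork genes, 20 fell with a median of -0.67. Lig1, the ligase of the lagging strand, fell by 1.25, and the clamp loader subunits Rfc5 and Rfc2 fell by 0.82 and 0.56. Of the 7 genes of deoxynucleotide supply, 6 fell with a median of -0.93, among them Tyms, which makes thymidylate (-0.93), Rrm1, a subunit of ribonucleotide reductase (-0.82), and Dut, which removes dUTP (-1.03).

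Ubiquitin ligases that degrade CDT1 in S phase fell for 5 of 8 genes, with a median log2 fold change of -0.38. Dtl, the receptor that recognises CDT1 on chromatin, fell by 1.32 and had 49.7, 64.6, 63.8 and 44.1 CPM in VC and 15, 40.6, 18.7 and 14.4 CPM in miR-21-KD tumours, without overlap. Cul4b, a scaffold of these ligases, fell by 0.45 and Skp1a, an adaptor, by 0.43, while Ddb1, Cul4a and Cul1 did not pass. Of 18 genes of G2 and M phase, which act after replication, 17 fell with a median of -1.27, among them Aurkb (-1.32), Ccnb2 (-1.33) and Birc5 (-1.38), a kinase, a cyclin and a chromosomal passenger protein of mitosis. The summed level of the G2 and M genes was 2292 to 3264 CPM in VC and 759 to 2245 CPM in miR-21-KD tumours, and the highest of the latter was KD2.

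**Figure D5:**
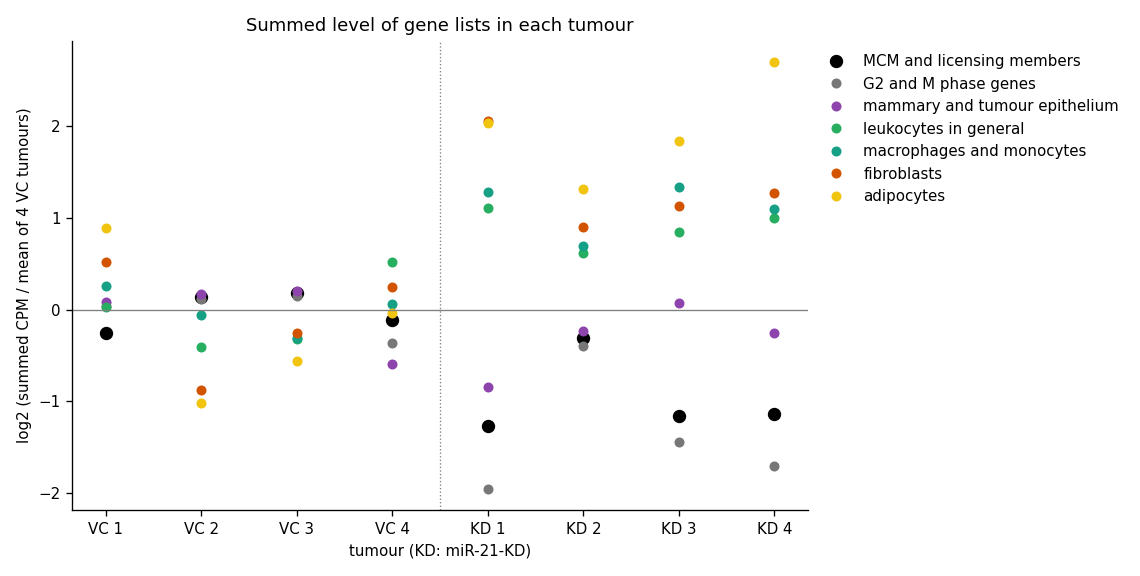
Summed CPM of the 10 licensing genes (black), G2 and M phase genes (grey) and 5 marker lists (coloured) in each tumour, as log2 relative to the mean of the 4 VC tumours. Black and grey points are low in KD1, KD3 and KD4 and near the controls in KD2, while macrophage, fibroblast, leukocyte and adipocyte sums are above the VC mean in all 4 miR-21-KD tumours.

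Genes whose pattern over the 8 tumours was most like that of the helicase were ranked by the root mean square difference between their centred log2 CPM and the mean of Mcm2 to Mcm7, among 13008 genes. The 5 nearest were Ddx11 (0.072), Skp2 (0.073), Ska2 (0.075), Rad51ap1 (0.085) and Tyms (0.088). Skp2, a substrate receptor of one of the ligases that act on CDT1, was at 34.9, 39.8, 39.7 and 35.6 CPM in VC and 15.3, 31.9, 16.6 and 17.6 CPM in miR-21-KD tumours. The likeness was the basis of its choice and is a description. The ring subunits themselves lay at distances from 0.060 for Mcm3 to 0.219 for Mcm6, and the licensing genes farthest from the ring were Cdc6 (0.304) and Mcm10 (0.295).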

How the data were processed

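Transcripts of 8 whole tumours, 4 VC and 4 miR-21-KD, were measured by RNA sequencing. The table that the authors deposited holds unnormalised read counts, with a row per Entrez gene and a column per tumour. The submitters' processing notes name Subread, featureCounts, edgeR, limma and the build mm10, without versions. The annotation and the strand setting are not given in the sources used here. Symbols and positions came from RefSeq on GRCm38.p6 (25275 of 27179 identifiers matched), and exon lengths from the union of GENCODE basic exons.

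The filter filterByExpr (at least 10 counts, total of at least 15) kept 14382 genes holding 99.852% of the counts. In R 4.3.3, edgeR 4.0.16 scaled libraries with TMM and applied the robust quasi-likelihood test, with Benjamini-Hochberg adjustment over all genes tested and a threshold of 0.05. Log2 CPM used a prior count of 2. Ratios between members were compared with an exact two-sided permutation test over tumours. The scripts were tested on simulated data. The members, the gene lists and the rule for named genes were chosen with earlier results of these data known, so they are no independent evidence. The rule names all members, all genes of the origin recognition complex, the 3 genes of smallest adjusted p of every other role list, and the 5 nearest profiles. Mcm8, Mcm9, Pold4, Ddb1, Cul4a, Cul1 and the marker genes named were chosen after their values were seen.

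Tumours with the same number deviated together from their group means (correlations over genes 0.272, 0.421, 0.175 and 0.376, against a mean of -0.105 over the 12 other pairs), so the replicate number was treated as pairing in an alternative fit. The labels do not say what the number stands for. Counts of any 2 tumours of one group differed by more than sampling noise (chi-square per degree of freedom 13.1 to 76.4). The other alternatives were DESeq2 1.42.0, limma 3.58.1 with voom, other scalings and filters, and leaving out each tumour. Limits from a count of 0 cover counting error only.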

Additional observations from a re-analysis of the deposited data

Results flagged for a closer look

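A tumour stood far from the other 3 of its group for 7 of the 10 licensing genes, by a test of the gap to the nearest tumour as a share of the range against Dixon's 95% critical value. In each case it was KD2, on the high side. The gap was 0.882 of the range for Mcm2, 0.954 for Mcm3, 0.892 for Mcm4, 0.875 for Mcm5, 0.943 for Mcm6, 0.864 for Mcm10 and 0.862 for Cdc6, all in CPM. Mcm7, Cdt1 and Gmnn did not reach the critical value.

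The same test picked out 3 log2 ratios. The ratio of Mcm4 to the mean of Mcm2 to Mcm7 was high in VC1 (0.878), that of Mcm5 to the same mean was high in VC4 (0.856), and that of Mcm10 to Gmnn was high in KD2 (0.846). In all, 38 sets of 4 values were checked and 10 passed, where chance passes about 1 in 20. The sets share tumours and are not independent.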

How the results depend on the processing

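All 10 log2 fold changes were negative under every alternative run. The count of licensing genes called lower was 10 with DESeq2 (21.6% of all genes tested called lower), limma-voom (20.2%) and library size scaling (20.3%). It was also 10 with upper-quartile scaling (17.4%) and a minimum of 10 counts in every tumour (18.2%). With no filter it was 9 (12.8%), and Mcm2 had an adjusted p of 0.0528 by edgeR. With the replicate block it was 10 (22.1%), and the block changed no call of a member. It could change no call of a ratio, since none passed without it and the paired test cannot reach the threshold. The block changed calls among the marker lists, as given with them, and in 4 replication lists. Genes called lower in these were then 21 for polymerases and fork, 18 for G2 and M phase, 5 for other licensing partners and 6 for ubiquitin ligases. Leaving out 1 tumour gave 4 to 10 genes: 8 without VC1, 5 without VC2, 4 without VC3, 7 without VC4, 5 without KD1, 10 without KD2, 4 without KD3 and 4 without KD4. Over all genes tested the share called lower then ran from 10.2% to 24.3%. Mcm5, Mcm6, Mcm7 and Cdc6 passed under all 15 alternatives, Mcm10 under 12, Mcm3 and Cdt1 under 10, and Mcm2, Mcm4 and Gmnn under 8. The difference in the ratio of Cdt1 to Gmnn turned negative without VC1 (-0.0066), over a range of -0.0066 to 0.103 when 1 tumour was left out, and the cause was not tested. No other ratio changed sign. For 4 pairs the smallest p of the exact sign-flip permutation test is 0.125, so the paired test of the ratios says nothing about their stability. At 4 tumours per group the licensing genes with the smaller differences lay close to the threshold.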
